A study of Mus musculus with 11 samples.

Results

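The 10 genes described here encode the heat shock proteins of the cytosol and the mitochondrial matrix and 1 of their partners: Hspa1a, Hspa1b, Hspa8, Hsp90aa1, Hsph1, Dnajb1, Hspb1, Hspd1, Hspe1 and Bag3. They were taken by symbol from the 54232 gene identifiers counted in each library, and all 10 were found. Of these, 9 had enough reads to be tested, and Hspa1a did not: the tested genes ranged from 26 to 120 counts per library for Hspa1b to 3865 to 6864 for Hspd1. Hepatocytes isolated from mouse liver were compared in 11 RNA-seq libraries. Mice carrying the floxed Xbp1 allele alone (Xbp1 fl/fl) were the controls, and mice in which Cre driven by the albumin promoter removes Xbp1 from hepatocytes (Xbp1 LKO) were the knockouts. Both were adult males on the C57BL/6 background, so the floxed allele is shared by every group and Cre is not. For up to 6 weeks they ate chow or the HFS (high fat sugar) diet, in which a Western diet is given with fructose and glucose in the drinking water. The groups held 3 libraries of chow-fed Xbp1 fl/fl, 2 of chow-fed Xbp1 LKO, 3 of HFS-fed Xbp1 fl/fl and 3 of HFS-fed Xbp1 LKO hepatocytes. A chow library came from 1 mouse and an HFS library from a pool of 2 mice.

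Heat shock proteins are chaperones, which bind unfolded protein and either hold it in solution or drive its folding with ATP. In the cytosol HSP70 proteins take up a substrate brought by a J-domain protein, a nucleotide exchange factor resets them, and HSP90 finishes many of their clients. In the mitochondrial matrix HSP60 forms a barrel that folds imported proteins under a lid of HSP10. These genes are controlled mainly by HSF1, a factor that binds heat shock elements, which are repeats of GAA in alternating orientation, whereas XBP1 serves the unfolded protein response of the endoplasmic reticulum (ER), a separate compartment with its own chaperones.

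The heat shock elements near the members' transcription start sites are shown because they are the regulatory letters that the members could share. They were searched in the 250 bases before each RefSeq start (GRCm38) as 3 units, GAANNTTCNNGAA or TTCNNGAANNTTC, and as the looser 2 units, GAANNTTC or TTCNNGAA, so that both strands are covered and each 3-unit match also holds 2-unit matches. The promoter table held 8 of the 10 members. Capitals mark the letters matched, and each sequence is given 5′ to 3′ on the strand of its gene.
Hspd1 (chr1:55088053-55088082, minus strand): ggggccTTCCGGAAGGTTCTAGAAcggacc
Hspe1 (chr1:55088053-55088082, plus strand): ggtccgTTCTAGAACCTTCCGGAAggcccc
Hspa1a (chr17:34972247-34972266, minus strand): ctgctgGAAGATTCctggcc
Hspa1b (chr17:34959329-34959348, minus strand): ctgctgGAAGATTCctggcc
Hsph1 (chr5:149636356-149636375, minus strand): gaatctTTCTCGAAggctcg
Hspb1 (chr5:135887796-135887815, plus strand): acaagaGAAGTTTCcagatg
Hspb1 (chr5:135887816-135887835, plus strand): ggggcaGAACCTTCctggcc

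The exact 3-unit element was found for 2 of the 8 members, Hspd1 and Hspe1, and it is 1 stretch of DNA read from either strand. Only exact letters were matched, so an element with a changed base or outside the 250 bases would be missed. These genes lie head to head on chromosome 1: Hspd1 runs leftward from 55088243 to 55077835 and Hspe1 rightward from 55088132 to 55091307, so that the gene models overlap by 112 bases, where reads of the 2 genes cannot be told apart unless the counting used strand. A stranded mRNA kit is named in the methods and a total RNA kit in the labels, and whether strand was used in counting is not given in the sources used here. The last matched base lies 72 bases before the Hspe1 start and 127 bases before the downstream one of the 2 RefSeq starts of Hspd1, and the same bases fall within an exon of a longer Hspd1 transcript. The other Hspd1 start had no match in its 250 bases. Of 32851 promoters, 153 (0.466%) held the 3-unit form, and by gene 139 of 27025 (0.514%) did. The 2-unit form was present in 12.8% of promoters and so is a loose description. It was found for Hspa1a and Hspa1b, whose stretches were identical in all letters printed, for Hsph1 (within an exon of a longer transcript of that gene) and for Hspb1. Dnajb1 and Bag3 had neither form in this window.

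Total counts were 19191032 to 23888401 per library, and levels are given as CPM, counts scaled to a common library size by edgeR's TMM method. Xbp1, the targeted gene, was at 194 to 301 CPM in the 6 Xbp1 fl/fl libraries and at 95.7 to 135 CPM in the 5 Xbp1 LKO libraries, with no overlap; these counts cover the whole gene, so reads from the part that Cre leaves in place are included. Hepatocyte markers were high in every library (12 genes, albumin among them, summed level 51879 to 184559 CPM). They were lower in all 5 Xbp1 LKO libraries, at most 100966 CPM, than in all 6 Xbp1 fl/fl libraries, at least 129255 CPM. Markers of other liver cells were low: the summed levels of 12 macrophage, 12 endothelial, 12 stellate cell and 10 cholangiocyte genes stayed at or below 101, 163, 75.7 and 62.3 CPM. The stellate cell marker Acta2 and the cholangiocyte markers Krt7 and Cftr had at most 3 counts in every library.

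Per kilobase of merged exon, the mitochondrial chaperonin Hspd1 was the most abundant member. Its mean over the 11 libraries was 89.1 CPM per kb (range 75.3 to 104), above Hspa8 at 45.0 (29.3 to 57.4) in every library. Hspe1 followed at 19.4 CPM per kb. Bag3 (13.0), Hsph1 (11.9), Hsp90aa1 (10.3), Dnajb1 (7.62) and Hspb1 (7.19) came next, and each overlapped the one after it over the libraries. Hspe1 was above Bag3 and Hsp90aa1 above Dnajb1 within all 11 libraries, whereas Bag3 exceeded Hsph1, and Dnajb1 exceeded Hspb1, in 6 of 11, so the order within these last pairs is not beyond the spread. Hsph1 exceeded Hsp90aa1 in 10 of 11. The inducible HSP70 genes were lowest, with 1.30 CPM per kb for Hspa1b (0.472 to 1.95) and 0.0543 for Hspa1a. Some of this order depends on how reads were assigned. Of all 50-base stretches of the annotated transcripts, 60.3% of those of Hspa1a, 62.3% of Hspa1b, 48.8% of Hspb1, 47.5% of Hsp90aa1, 39.7% of Hspd1, 38.6% of Hspa8 and 18.4% of Hspe1 also occur in another gene, mostly a processed pseudogene, against 0.38% of Dnajb1 and none of Hsph1 and Bag3. In these files 882 of 893 genes with a complete copy elsewhere had 0 counts in all 11 libraries. Of all 54232 identifiers, 26016 had any count. Copied genes may also be silent in hepatocytes, so whether reads that match more than 1 gene were left out was not tested. If such reads were left out, the levels of the first 7 genes may be low estimates, and comparisons of 1 gene between libraries are less affected than comparisons between genes.

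**Figure D1:**
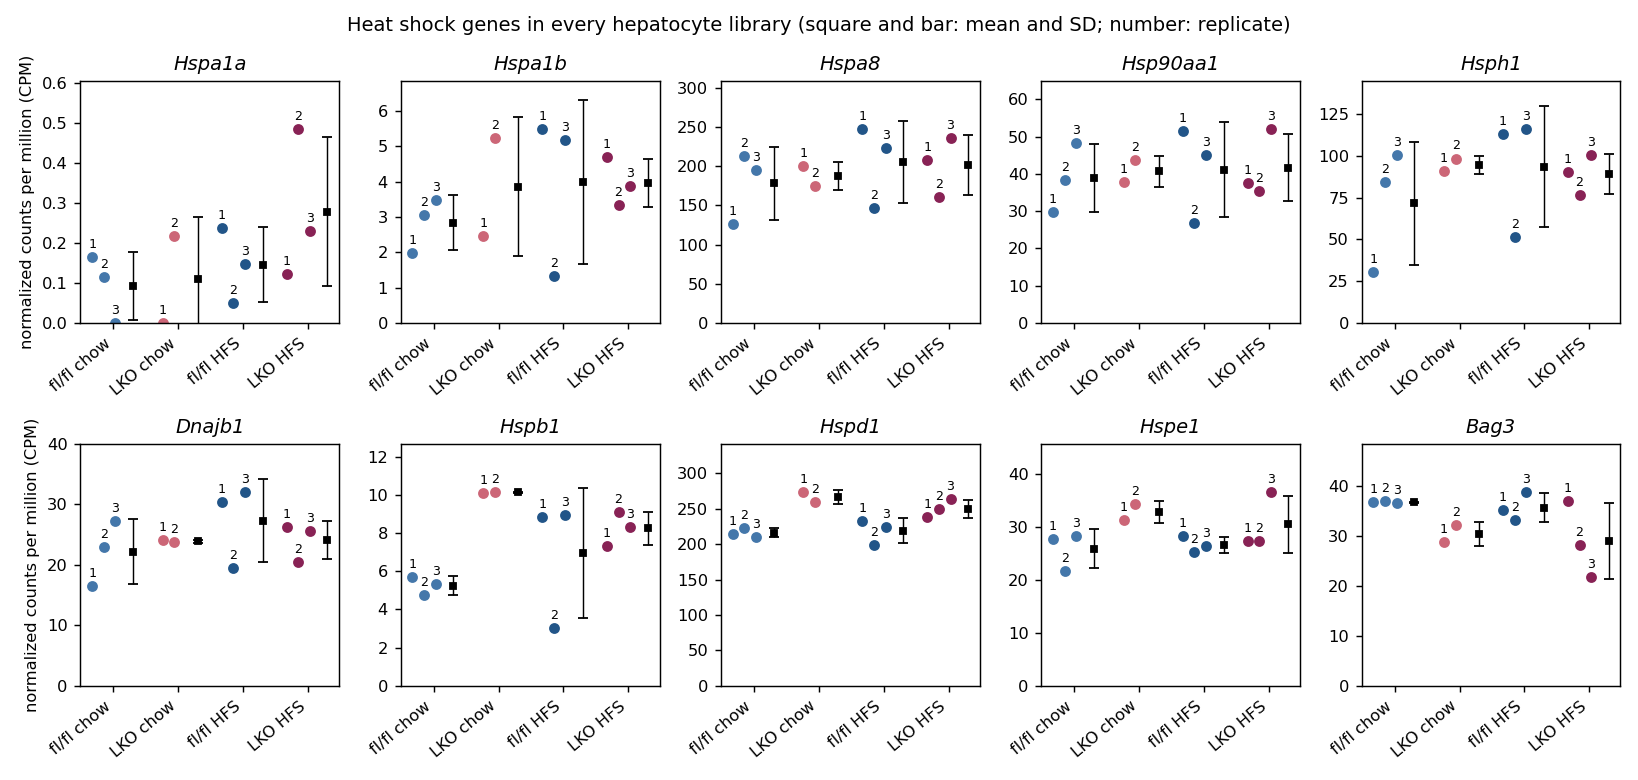
Level of each of the 10 heat shock genes in the 11 hepatocyte libraries, with the group on the x axis and normalized CPM on the y axis, which starts at 0 and differs between panels. Each point is a library with its replicate number, and the square and bar give the group mean and SD (n = 3, or 2 for chow-fed Xbp1 LKO). Hspd1 is higher in all 5 Xbp1 LKO libraries, while replicate 1 of the chow-fed and replicate 2 of the HFS-fed Xbp1 fl/fl libraries are low for the cytosolic genes Hspa1b, Hspa8, Hsp90aa1, Hsph1 and Dnajb1.

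The first question was whether loss of hepatocyte Xbp1 was accompanied by a change of the heat shock genes outside the ER. No member passed the threshold of an adjusted p of 0.05 in either genotype comparison. Among chow-fed mice 0 of the 9 tested members were called by edgeR (quasi-likelihood test, p adjusted by Benjamini-Hochberg), where 4.75% of the 13303 genes tested were called, and 3 had an unadjusted p under 0.05. Among HFS-fed mice the count was also 0 of 9, beside 4.08% of all genes, with 0 at the unadjusted level. DESeq2 called 0 of the 9 members to which it gave an adjusted p on chow (none was given for Hspa1a) and 0 of 10 on the HFS diet. The median log2 fold change of the 9 members was 0.30 on chow and -0.01 on the HFS diet, beside 0.00 and 0.01 for all genes tested. The median on chow rested on single libraries: it was 0.04 without replicate 1 of the Xbp1 fl/fl group and 0.16 without replicate 2 of the Xbp1 LKO group. Without 1 library at a time, the median on the HFS diet ran from -0.22 to 0.21. The members with the largest values on chow were Hspb1, Hspe1 and Hspd1.

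Hspd1 encodes HSP60, the chaperonin of the mitochondrial matrix. Its level was 215, 223 and 211 CPM in chow-fed Xbp1 fl/fl hepatocytes and 274 and 259 CPM in chow-fed Xbp1 LKO hepatocytes. On the HFS diet it was 233, 199 and 225 CPM in Xbp1 fl/fl and 238, 249.9 and 263 CPM in Xbp1 LKO hepatocytes. All 5 Xbp1 LKO libraries lay above all 6 Xbp1 fl/fl libraries, and Hspd1 was the only 1 of the 9 tested members to do so, as did 3.19% of all genes tested. The difference was small. The log2 fold change on chow was 0.30 with a standard error of 0.12 (1.23-fold, 95% interval of the change 3.30% to 47.1%), and the adjusted p was 0.175 by edgeR's quasi-likelihood test. On the HFS diet it was 0.19 with a standard error of 0.10 (1.14-fold, interval -2.43% to 34.1%, adjusted p = 0.387).

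Hspe1 encodes HSP10, the lid of the same chaperonin, and shares the element shown above with Hspd1. It was at 27.7, 21.7 and 28.4 CPM in chow-fed Xbp1 fl/fl hepatocytes and at 31.4 and 34.4 CPM in the chow-fed Xbp1 LKO hepatocytes, which did not overlap. In HFS-fed Xbp1 fl/fl hepatocytes it was at 28.3, 25.3 and 26.4 CPM. HFS-fed Xbp1 LKO libraries had 27.5, 27.5 and 36.7 CPM, so that 2 of the 3 fell within the control range. The log2 fold change was 0.34 (standard error 0.15) on chow and 0.20 (standard error 0.14) on the HFS diet, with edgeR adjusted p of 0.255 and 0.538. The counts of Hspd1 exceeded those of Hspe1 by a ratio of 7.18 to 10.3 across the 11 libraries, with a median of 8.23.

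Hspb1 encodes HSP25, a small heat shock protein that holds unfolded protein without ATP and binds actin filaments. It had 5.68, 4.74 and 5.33 CPM in chow-fed Xbp1 fl/fl hepatocytes and 10.1 CPM in each of the 2 chow-fed Xbp1 LKO libraries. These groups were 1.93-fold apart without overlap, the widest gap of any tested member (log2 fold change 0.95, standard error 0.34, adjusted p = 0.152 by edgeR's quasi-likelihood test). The HFS-fed Xbp1 fl/fl libraries were at 8.86, 3.00 and 8.96 CPM and the HFS-fed Xbp1 LKO libraries at 7.33, 9.07 and 8.32 CPM, so the control range enclosed most of the knockout values. The Hspb1 results depended on the libraries and settings used. Without replicate 2 of the HFS-fed Xbp1 fl/fl group, which had the lowest value and enters the estimate of the spread for every comparison, the adjusted p on chow was 0.00952 at a log2 fold change of 0.95, and the log2 fold change on the HFS diet turned from 0.25 to -0.11. The adjusted p on chow was 0.00135 with genes of low counts kept in, 0.0278 with libraries scaled by their totals and 0.0584 with only the groups compared. Hspb1 is also made by other liver cells. The summed endothelial markers were 49.9 to 119 CPM in chow-fed Xbp1 fl/fl and 29.6 and 38.6 CPM in chow-fed Xbp1 LKO libraries, and the stellate cell markers 27.3 to 75.7 and 17.1 and 18.2 CPM, so on chow both were lower where Hspb1 was higher. Among HFS-fed controls the endothelial sum was lowest in replicate 2, at 96.3 CPM against 163 and 133 CPM, as Hspb1 was. The stellate cell sum of that library, 41.8 CPM, lay between those of the other controls (54.3 and 31.6 CPM). So did its macrophage sum (44.8 CPM, against 56.7 and 38.8 CPM). Its cholangiocyte sum was the highest of the group (62.3 CPM, against 25.8 and 32.4 CPM). The part of these cells in the Hspb1 levels was not tested. In bulk RNA, fewer cells of a type and less RNA per cell cannot be told apart.

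On chow, 3 of the 9 tested members, Hspb1, Hspd1 and Hspe1, were higher in both Xbp1 LKO libraries than in all 3 Xbp1 fl/fl libraries, as were 15.4% of all genes tested. Bag3 was the 1 member that was lower without overlap, as were 15.9% of all genes. On the HFS diet only Hspd1 was higher without overlap, beside 13.6% of all genes.

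Bag3 encodes a nucleotide exchange factor that pairs HSP70 with small heat shock proteins and steers their clients to autophagy. The chow-fed Xbp1 fl/fl libraries were within a narrow band of 36.7, 36.9 and 36.6 CPM, and the chow-fed Xbp1 LKO libraries were below it at 28.7 and 32.1 CPM. In HFS-fed mice Bag3 was at 35.2, 33.1 and 38.7 CPM in Xbp1 fl/fl hepatocytes and at 36.9, 28.2 and 21.9 CPM in Xbp1 LKO hepatocytes, where the 3 libraries spread more than those of any other group. The log2 fold change was -0.27 (standard error 0.18, adjusted p = 0.437) on chow and -0.30 (standard error 0.16, adjusted p = 0.368) in HFS-fed mice by edgeR's quasi-likelihood test. The value on chow was 0.06 when libraries were scaled by their totals alone, a scaling that moved the median log2 fold change of all genes to 0.33.

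The cytosolic genes Hspa8, Hsph1, Hspa1b, Hsp90aa1 and Dnajb1 overlapped between the genotypes on both diets. Hspa8 encodes HSC70, the constitutive HSP70. It was at 126, 213 and 195 CPM in chow-fed Xbp1 fl/fl, 199.9 and 174 CPM in chow-fed Xbp1 LKO, 247, 147 and 223 CPM in HFS-fed Xbp1 fl/fl and 207, 161 and 236 CPM in HFS-fed Xbp1 LKO hepatocytes. The log2 fold change between genotypes was 0.07 on chow and -0.03 on the HFS diet, with standard errors of 0.26 and 0.23. The 95% intervals of the change, before adjustment for multiple tests, ran from -29.1% to 55.8% on chow and from -31.1% to 39.5% on the HFS diet. A change of Hspa8 in either direction within these bounds is therefore not excluded.

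Hsph1 encodes HSP110, a nucleotide exchange factor of HSP70. It had 30.4, 84.1 and 100.4 CPM in chow-fed Xbp1 fl/fl hepatocytes and 91.0 and 98.4 CPM in chow-fed Xbp1 LKO hepatocytes, with the highest control above both knockouts. In HFS-fed mice the levels were 113, 51.7 and 116 CPM in Xbp1 fl/fl and 90.2, 76.7 and 101 CPM in Xbp1 LKO hepatocytes. Hsph1 differed on chow by 0.40 on the log2 scale (standard error 0.42, adjusted p = 0.662, edgeR), a value that came down to 0.04 without replicate 1 of the chow-fed Xbp1 fl/fl group. In HFS-fed mice it was -0.07 (standard error 0.38).

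Hspa1a and Hspa1b are adjacent copies on chromosome 17, 12918 bases apart from start to start, that encode nearly the same stress-inducible HSP70. Together they had 27 to 125 counts per library, of which Hspa1a took 4.40%. Hspa1b was at 1.99, 3.06 and 3.49 CPM in chow-fed Xbp1 fl/fl, 2.47 and 5.24 CPM in chow-fed Xbp1 LKO, 5.48, 1.32 and 5.19 CPM in HFS-fed Xbp1 fl/fl and 4.68, 3.35 and 3.87 CPM in HFS-fed Xbp1 LKO hepatocytes. The groups overlapped on both diets. Its log2 fold change was 0.44 (standard error 0.51) on chow and -0.01 (standard error 0.45) on the HFS diet, and the sum of both copies gave 0.43 and 0.03. Hspa1a had between 0 and 13 counts in a library, and was at 0 in chow-fed Xbp1 fl/fl replicate 3 and chow-fed Xbp1 LKO replicate 1, which at 3 counts allows up to 0.149 and 0.128 CPM by counting error alone. Since most stretches of these genes occur in both, the division of reads between the copies is uncertain.

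Hsp90aa1 encodes the inducible cytosolic HSP90. It ranged from 29.9 to 48.1 CPM in chow-fed Xbp1 fl/fl, 37.8 and 43.6 CPM in chow-fed Xbp1 LKO, 26.8 to 51.4 CPM in HFS-fed Xbp1 fl/fl and 35.3 to 51.9 CPM in HFS-fed Xbp1 LKO hepatocytes. Dnajb1 encodes HSP40, the J-domain protein that delivers substrates to HSP70. It ranged from 16.4 to 27.2 CPM, 23.8 and 24.1 CPM, 19.4 to 32.0 CPM and 20.5 to 26.2 CPM in the same groups. The knockout values of both genes fell inside the control range on chow. Their log2 fold changes were 0.07 and 0.11 on chow and 0.02 and -0.18 on the HFS diet, with standard errors of 0.21 to 0.27.

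**Figure D2:**
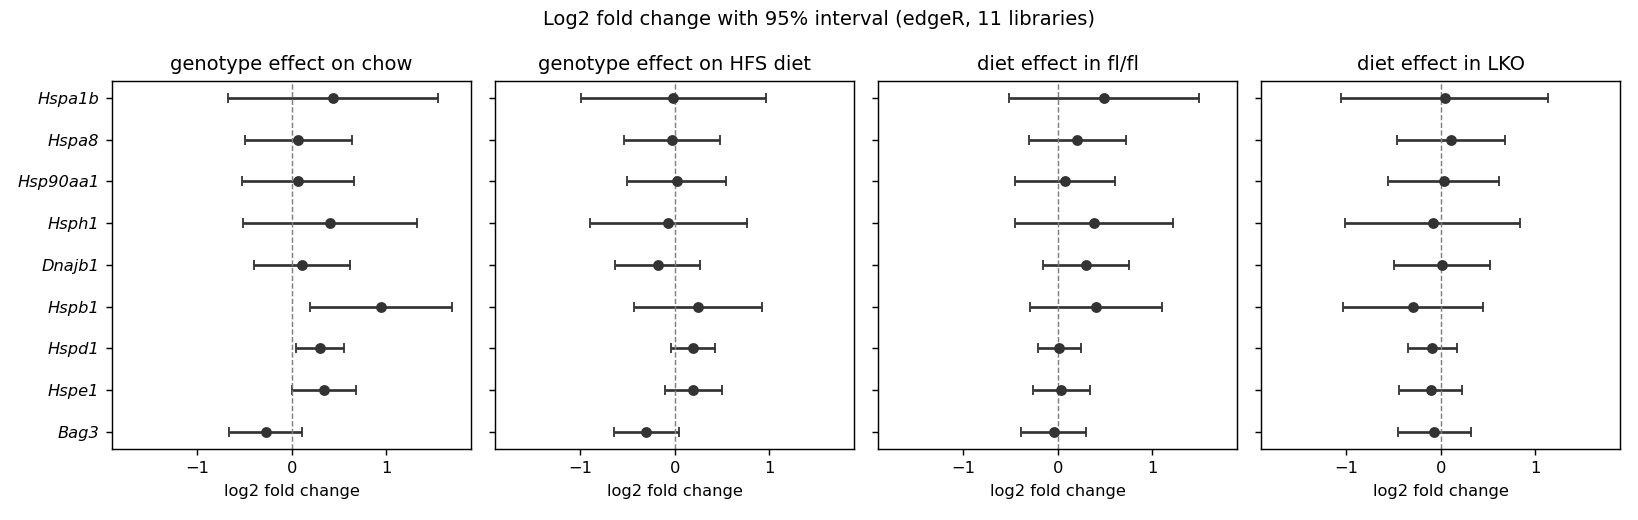
Log2 fold change (x axis) of the 9 tested heat shock genes (y axis) for the genotype effect on each diet (Xbp1 LKO against Xbp1 fl/fl) and the diet effect in each genotype (HFS against chow). Points are edgeR estimates from 11 libraries and bars 95% intervals, which before adjustment for multiple tests lie above 0 only for Hspb1, Hspd1 and Hspe1 on chow.

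The second question was whether the HFS diet changed these genes. Every chow library was of 1 mouse and every HFS library a pool of 2. Diet and pooling therefore cannot be told apart, here or in the interaction. In Xbp1 fl/fl hepatocytes 0 of the 9 tested members passed edgeR's quasi-likelihood test, where 0.428% of all genes were called, and 0 had an unadjusted p under 0.05. In Xbp1 LKO hepatocytes the counts were again 0 and 0, where 0.0601% of all genes were called. DESeq2 called 0 of 10 members in Xbp1 fl/fl and 0 of 9 in Xbp1 LKO hepatocytes, where Hspa1a had no adjusted p. In Xbp1 fl/fl hepatocytes the values ran from -0.04 for Bag3 to 0.49 for Hspa1b on the log2 scale, with a median of 0.21 for the members and -0.01 for all genes. The members' median was 0.02 without replicate 1 and 0.32 without replicate 2 of the chow-fed controls. It was 0.05 without replicate 1 and 0.40 without replicate 2 of the HFS-fed controls. Without replicate 2 of the HFS-fed Xbp1 fl/fl group Hspa1b had a log2 fold change of 0.90 (standard error 0.33, unadjusted p = 0.0207, adjusted p = 0.470), of Hspb1 0.76 (standard error 0.16, adjusted p = 0.116) and of Dnajb1 0.49 (standard error 0.19, adjusted p = 0.482) by edgeR, and none passed the threshold. In Xbp1 LKO hepatocytes the values ran from -0.30 for Hspb1 to 0.11 for Hspa8. The mitochondrial pair had the narrowest intervals: the change of Hspd1 with the HFS diet lay between -13.7% and 18.7% in Xbp1 fl/fl hepatocytes and between -21.3% and 12.2% in Xbp1 LKO hepatocytes.

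The genotype effect was then compared between the diets. The interaction term passed the threshold for 0 of the 9 members by edgeR and for 0 of 9 by DESeq2, which gave Hspa1a no adjusted p, where edgeR called 0% of all genes (816 of 13303 at an unadjusted p under 0.05). The largest value was that of Hspb1, whose genotype effect was lower on the HFS diet by a log2 difference of -0.70 (standard error 0.46, unadjusted p = 0.158, adjusted p = 0.869). All 9 estimates were negative, from -0.70 to -0.02, but they come from the same 11 libraries and several members move together between libraries, as described next, so the signs are not 9 separate observations.

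Of the cytosolic members, 5 shared much of their variation within the groups. Hspa1b, Hspa8, Hsp90aa1, Hsph1 and Dnajb1 were each at their lowest and second lowest in the same 2 of the 11 libraries, replicate 1 of the chow-fed and replicate 2 of the HFS-fed Xbp1 fl/fl group. Within the chow-fed Xbp1 fl/fl group, Hsph1 was 3.04-fold and Dnajb1 1.52-fold higher in the mean of the other libraries than in replicate 1. Hspb1 was not low there, at the highest value of its group. Within the HFS-fed Xbp1 fl/fl group, Hspa1b was 4.03-fold, Hspb1 2.97-fold and Hsph1 2.21-fold higher in the other libraries than in replicate 2. By contrast, Hspd1 and Bag3 differed by 1.01-fold and 1.00-fold in the chow-fed comparison and by 1.15-fold and 1.12-fold in the HFS-fed one. Each low library had the smallest total of its group. These were 19515273 counts, against 19710725 and 21917294, and 21501344 counts, against 22405363 and 22573249. Chow-fed Xbp1 LKO replicate 2 had fewer counts still, 19191032. The part of depth in the low values was not tested. Their deviations from the group means over all genes tested correlated at r = 0.262. The 30 pairs of differently numbered libraries from different groups, this pair among them, ran from -0.267 to 0.333. Only the pair at 0.333 was above 0.262. How many of all genes are lowest in the same 2 libraries was not counted. Replicate 1 of the chow-fed group had the highest macrophage (87.2 CPM, against 19.9 and 20.8), endothelial (119 CPM, against 49.9 and 61.4) and stellate cell (75.7 CPM, against 27.3 and 30.4) marker sums of its group. Replicate 2 of the HFS-fed group did not, with 44.8, 96.3 and 41.8 CPM, but it had the highest cholangiocyte marker sum of the 11 libraries (62.3 CPM), the highest sum of immediate early genes (925 CPM) and the lowest sum of ER chaperones (4177 CPM). The part of these differences in the low values of the heat shock genes was not tested.

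**Figure D3:**
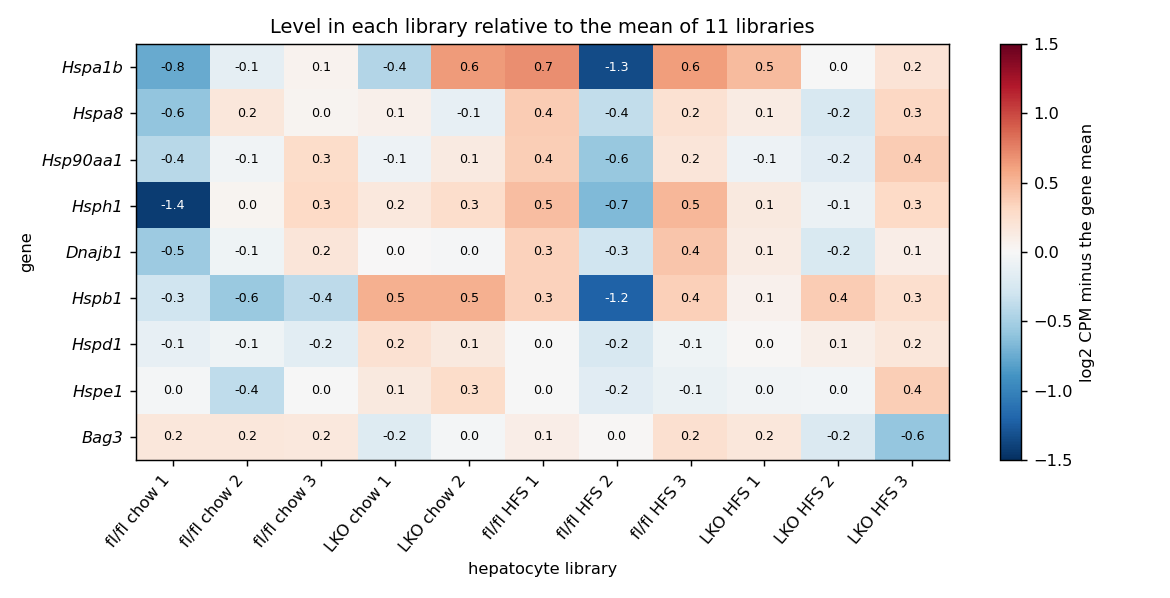
Log2 CPM of each tested heat shock gene (rows) in each library (columns) minus the mean of that gene over the 11 libraries, in colour and printed to 1 decimal. The 5 upper rows are low together in replicate 1 of the chow-fed and replicate 2 of the HFS-fed Xbp1 fl/fl libraries, whereas Hspd1 varies little and is at or above its mean in all 5 Xbp1 LKO libraries.

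Over the 11 libraries Pearson's r of log2 CPM between these 5 cytosolic genes was 0.70 to 0.91 in the 10 pairs, and Spearman's rho was 0.65 to 0.92. The closest pair was Hsph1 and Dnajb1, partners in the HSP70 cycle. With each library expressed as its deviation from its group mean, r was 0.68 to 0.94. Without the 2 low libraries, r was 0.28 to 0.93 over the other 9, with a median of 0.65, so part of the likeness rests on those 2. Against Hspd1 or Hspe1 the same 5 genes had r of 0.14 to 0.45, and against Bag3 r of -0.20 to 0.11. As deviations from the group means they had r of 0.47 to 0.66 against Hspd1, 0.059 to 0.51 against Hspe1 and -0.15 to 0.36 against Bag3, so the values against Hspd1 were higher within groups. Hspb1 was closer to Hspd1 (r = 0.84) than to the 5 cytosolic genes (0.42 to 0.72), and within groups these values were 0.76 and 0.46 to 0.77. Hspd1 and Hspe1 had r = 0.68, but 0.24 within groups. Bag3 went the other way, with r = -0.66 to Hspd1 and -0.69 to Hspe1, and -0.36 and -0.52 within groups. The 5 genes leave out the cytosolic members Hspb1 and Bag3 and stand out by their levels in these same libraries. Their likeness is therefore a description and no separate support for a group. These values describe libraries that also share genotype, diet and scaling, and no test was made of them.

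**Figure D4:**
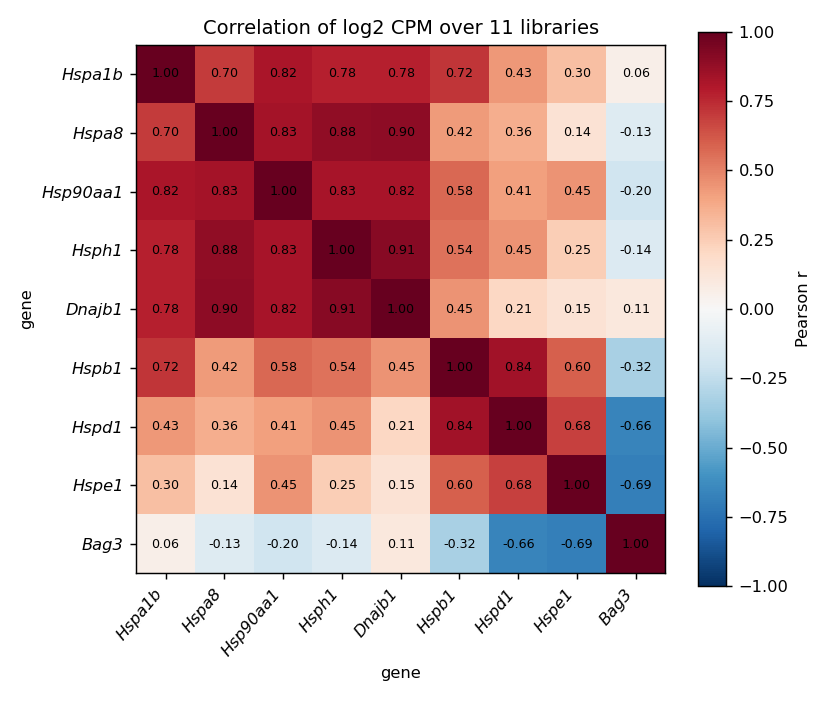
Pearson correlation of log2 CPM between the 9 tested heat shock genes (both axes) over the 11 libraries, in colour and as a number. Hspa1b, Hspa8, Hsp90aa1, Hsph1 and Dnajb1, set together because of their levels in these same libraries, have 0.70 to 0.91 among themselves. Bag3 is negative to Hspd1 and Hspe1.

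Among 13294 other genes tested, those most like the summed Hspa1a and Hspa1b over the 11 libraries were Gpr137b-ps (r = 0.88), Nfe2l1 (0.88), G0s2 (0.86), Zc3h10 (0.85) and Gm4335 (0.84). Nfe2l1 encodes a factor that induces proteasome genes, and G0s2 an inhibitor of the lipase ATGL. Gpr137b-ps and Gm4335 were below 1.75 CPM in every library. None of the 5 is a chaperone. Those most like Hspd1 were Tead1 (r = 0.93), Palmd (0.92), P4ha2 (0.92), Pigv (0.92) and Zfp346 (0.92), none of them a mitochondrial chaperone. These are the highest of many correlations over few libraries.

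The wider families of the members were described by lists of related genes. Of 30 tested HSP70, HSP90 and HSP110 genes and cochaperones outside the members, 0 passed edgeR's test on chow, where the list median was 0.07 and that of all genes 0.00, and 1 passed on the HFS diet, where the list median was 0.00. This was Stub1, which encodes the ubiquitin ligase CHIP that marks HSP70 and HSP90 clients for the proteasome. It was at 18.1, 18.2 and 20.0 CPM in HFS-fed Xbp1 fl/fl and 12.2, 12.1 and 14.8 CPM in HFS-fed Xbp1 LKO hepatocytes, and fell by 0.52 on the log2 scale (standard error 0.12, adjusted p = 0.0346, edgeR). The call was lost without any 1 of the 3 HFS-fed Xbp1 fl/fl libraries or replicate 1 or 2 of the HFS-fed Xbp1 LKO group (adjusted p 0.0804 to 0.152), with library totals (0.209) and with the replicate block (0.0668). On chow its log2 fold change was -0.17 (standard error 0.13, adjusted p = 0.543). Its interaction term was not past the threshold, like that of all genes.

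Of 17 tested mitochondrial chaperones and proteases, 0 passed in either genotype comparison. The median was 0.15 on chow and 0.12 on the HFS diet, beside 0.00 and 0.01 for all genes, and 12 of 17 estimates were positive on each diet. Without replicate 1 of the chow-fed Xbp1 LKO group the median on chow was 0.06 and 3 genes, Clpx, Dnaja3 and Lonp1, passed. On the HFS diet the median was 0.07 without replicate 1 of the Xbp1 fl/fl group and 0.08 without replicate 2 of the Xbp1 LKO group, and Clpx passed without either chow-fed Xbp1 LKO library. DESeq2 called Dnaja3, Hspa9 and Lonp1 on chow. The smallest p belonged to Lonp1, the main protease of the matrix, and Dnaja3, the J-domain partner of mitochondrial HSP70. Lonp1 was at 191, 223 and 170.0 CPM in chow-fed Xbp1 fl/fl and 256 and 378 CPM in chow-fed Xbp1 LKO hepatocytes, a difference of 0.70 on the log2 scale (standard error 0.19, adjusted p = 0.0657, edgeR). Dnaja3 had 0.62 (standard error 0.18, adjusted p = 0.0741), and much of it came from replicate 2 of the chow-fed Xbp1 LKO group, at 291 CPM, where replicate 1 was at 190.3 CPM and the controls at 142 to 175 CPM. On the HFS diet the values were 0.32 for Lonp1 and 0.04 for Dnaja3.

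**Figure D5:**
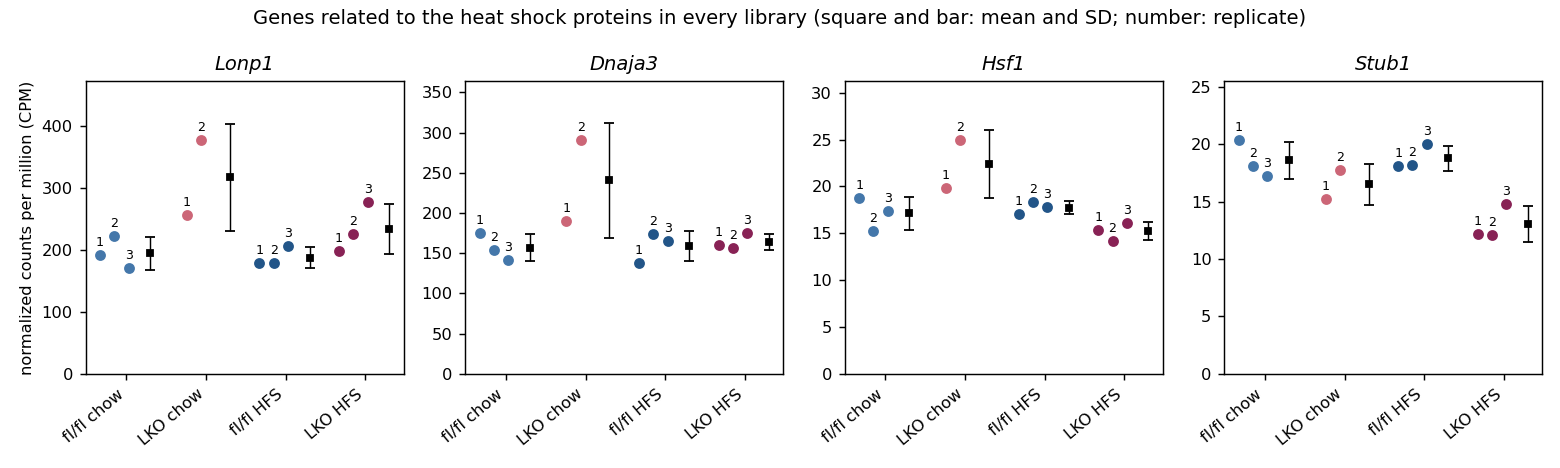
Levels of Lonp1, Dnaja3, Hsf1 and Stub1 in the 11 libraries, with the group on the x axis and normalized CPM on the y axis from 0. Points are libraries with their replicate number, and squares and bars are the mean and SD (n = 3, or 2 for chow-fed Xbp1 LKO). Replicate 2 of the chow-fed Xbp1 LKO group is the highest library for Lonp1, Dnaja3 and Hsf1, and the HFS-fed Xbp1 LKO libraries are the lowest for Stub1.

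Of 6 tested heat shock factors and regulators, 0 passed. Hsf1, the main activator of the members, differed by 0.39 on the log2 scale (standard error 0.13, adjusted p = 0.127, edgeR) in chow-fed and by -0.22 (standard error 0.12, adjusted p = 0.387) in HFS-fed mice. Hsf4 had 0.59 (standard error 0.15, adjusted p = 0.0541) and 0.32 (standard error 0.14, adjusted p = 0.264). None of 4 small heat shock proteins, 14 TRiC and prefoldin subunits or 19 other heat-induced genes passed on either diet (the last list shares genes with the others). The small heat shock proteins with the smallest p were Hspb8 on chow (log2 fold change 0.31, adjusted p = 0.274, edgeR) and Hspb11 on the HFS diet (0.25, adjusted p = 0.620). Of the cytosolic chaperonin and its helper they were Cct2 on chow (0.31, adjusted p = 0.147) and Pfdn2 on the HFS diet (-0.21, adjusted p = 0.215), and of the heat-induced genes Zfand2a on chow (0.67, adjusted p = 0.0778). In the diet comparisons and the interaction no gene of these 6 lists passed edgeR's test, although DESeq2 called Hsf1 for the diet effect in Xbp1 LKO. DESeq2 also called Hsf4 and Zfand2a on chow.

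The ER chaperones, the compartment served by XBP1, were set beside them. Of 15 tested ER chaperones, 1 passed on each diet, where 4.75% and 4.08% of all genes were called. This was Sil1, the nucleotide exchange factor of the ER HSP70. DESeq2 called Dnajc3 and Sil1 on chow and Dnajb11, Dnajc3 and Sil1 on the HFS diet. Without the filter on low counts, edgeR called 4 on chow and 7 on the HFS diet. RLE size factors, library totals and the replicate block called Sil1 alone. The log2 fold change of Sil1 was -0.83 (standard error 0.15, adjusted p = 0.0102, edgeR) on chow, and in HFS-fed mice it was -0.99 (standard error 0.13, adjusted p = 0.00267). On chow the call was lost without replicate 2 of the Xbp1 LKO group (adjusted p = 0.0924 at -0.85). The list median was -0.53 on the HFS diet. On chow it was -0.22, but the 2 Xbp1 LKO libraries lay on either side of the controls, with summed levels of 4237 and 10452 CPM against 6274 to 7181 CPM, and the median was 0.13 without replicate 1 and -0.88 without replicate 2 of that group. Because dissociation of liver tissue can itself induce stress genes, 20 immediate early genes were listed as well, 17 of which were tested. Atf3 (4.80, adjusted p = 0.00519) and Myc (3.02, adjusted p = 0.0490) were higher in chow-fed Xbp1 LKO hepatocytes, and Atf3 (3.09, adjusted p = 0.0304) and Klf6 (1.22, adjusted p = 0.00465) in HFS-fed Xbp1 LKO hepatocytes, all log2 fold changes by edgeR. Atf3 was at 0.496 to 1.21 CPM in chow-fed Xbp1 fl/fl and at 6.53 and 43.0 CPM in chow-fed Xbp1 LKO libraries. Its value on chow was 5.60 without replicate 1 and 2.87 without replicate 2 of that Xbp1 LKO group. Myc was not called without any 1 of the 5 chow libraries (adjusted p 0.0978 to 0.181) or of 3 HFS-fed libraries (0.0513 to 0.0571), nor Atf3 on the HFS diet without any 1 of 5 of its 6 libraries (0.0513 to 0.110). The list median was 0.28 on chow. On the HFS diet it was -0.18, and -0.43 to -0.08 without 1 library of that diet. The summed level was 604 to 792 CPM in chow-fed Xbp1 fl/fl and 839 and 882 CPM in chow-fed Xbp1 LKO libraries, which did not overlap, and 494 to 925 and 522 to 730 CPM on the HFS diet, which did. On chow the libraries with more immediate early transcripts were thus those with more Hspb1, Hspd1 and Hspe1, which is also the split by genotype. The highest sum of all libraries, 925 CPM, was in replicate 2 of the HFS-fed Xbp1 fl/fl group. There Hspb1 (3.00 CPM) and Hspd1 (199 CPM) were at their lowest and Hspe1 (25.3 CPM) at its second lowest. The part of dissociation in the levels of these genes was not tested.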

How the data were processed

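RNA from isolated hepatocytes was sequenced as single-end reads of 50 bases. The deposited values are the authors' unnormalized read counts for each Ensembl gene, all whole. The paper names kallisto and tximport for this step, whereas the submitters' processing notes name cutadapt 1.13, STAR, HTSeq 0.6.1p1 and mm10, and the files do not say which made the counts. Of 54232 identifiers, 54165 were found in GENCODE M21 (GRCm38), the source of symbols and positions.

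Here they were scaled to CPM by TMM with edgeR 4.0.16 (R 4.3.3), genes of low count were removed (filterByExpr, minimum 10), and edgeR's quasi-likelihood test was run with 1 factor for the 4 labelled groups across all 11 libraries, with Benjamini-Hochberg adjustment over 13303 genes and a threshold of 0.05. The labels do not tie libraries to litters or days, so p-values measure the spread between these libraries. For each gene the fit shared its estimate of the spread between the single-mouse chow libraries and the pooled HFS libraries. Genes named were the 10 members, Xbp1, per list the genes past the threshold in a genotype comparison (at most 6, otherwise the 4 of smallest p, or the 2 of smallest p where none passed), and the 5 genes most correlated with Hspa1a and Hspa1b summed and with Hspd1 (log2 CPM, prior count 2). One gene that this rule names is not reported here. The members and lists were chosen with earlier results of these data known. The code was tested on simulated counts. Alternatives were DESeq2 1.42.0, RLE size factors, library totals, no filter on low counts, only the groups compared, a replicate block, each library left out, and Hspa1a and Hspa1b summed.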

Additional observations from a re-analysis of the deposited data

How the results depend on the processing

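The count of heat shock genes past the threshold was 0 in all 5 comparisons and stayed 0 with DESeq2, RLE size factors, only the groups compared, the replicate block and Hspa1a and Hspa1b summed. With library totals in place of TMM, 3 were called on chow (Hspb1, Hspd1 and Hspe1, higher in Xbp1 LKO) and 1 on the HFS diet (Hspd1, higher). That scaling moved the median log2 fold change of all genes to 0.33 and 0.27. The TMM factors were 0.878 to 0.938 in Xbp1 fl/fl and 1.05 to 1.19 in Xbp1 LKO libraries, with no overlap. TMM, RLE and DESeq2 all take most genes as unchanged, so they are not separate checks of the scaling. Which scaling holds cannot be told from these counts. Without a filter on low counts 1 was called on chow (Hspb1). Leaving out each library in turn gave 0 to 1 on chow, the 1 being Hspb1 without HFS-fed Xbp1 fl/fl replicate 2, and 0 for the other comparisons. Where an arm had 1 library left, that library was taken to vary like the other groups. With 2 or 3 libraries a group, the standard errors of the 9 members were 0.10 to 0.68 on the log2 scale, which limits the size of change that could be called.

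Signs changed for some members, and the cause was not tested. With library totals the genotype effect on the HFS diet became 0.24 for Hspa1b, 0.23 for Hspa8, 0.19 for Hsph1 and 0.075 for Dnajb1, that of Bag3 on chow became 0.057, and the diet effect in Xbp1 LKO became -0.038 for Hspa1b, -0.022 for Hsp90aa1 and -0.044 for Dnajb1. With the 2 HSP70 copies summed, the genotype effect of Hspa1b on the HFS diet was 0.032. The diet effect of Dnajb1 in Xbp1 LKO was -0.0019 without the filter and -0.0029 with only the groups compared. Leaving out 1 library gave, for the genotype effect on chow, Hspa1b -0.21 to 0.88, Hspa8 -0.13 to 0.22, Hsp90aa1 -0.088 to 0.25 and Dnajb1 -0.068 to 0.28. For the genotype effect on the HFS diet the ranges were Hspa1b -0.43 to 0.28, Hspa8 -0.22 to 0.12, Hsp90aa1 -0.21 to 0.21, Hsph1 -0.36 to 0.12 and Hspb1 -0.11 to 0.47. For the diet effect in Xbp1 fl/fl they were Hsp90aa1 -0.11 to 0.31, Hspd1 -0.029 to 0.081, Hspe1 -0.074 to 0.11 and Bag3 -0.11 to 0.0071. For the diet effect in Xbp1 LKO they were Hspa1b -0.41 to 0.69, Hspa8 -0.022 to 0.25, Hsp90aa1 -0.16 to 0.15, Hsph1 -0.18 to 0.013, Dnajb1 -0.049 to 0.12 and Bag3 -0.27 to 0.10. For the interaction they were Hspa1b -0.90 to 0.19, Hspa8 -0.29 to 0.10, Hsp90aa1 -0.28 to 0.14 and Bag3 -0.23 to 0.14. Hspd1 kept its direction in both genotype comparisons without any 1 library, at 0.26 to 0.34 on chow and 0.13 to 0.24 on the HFS diet.

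Replicate numbers of the titles gave no sign of pairing the libraries. Deviations from the group means of same-numbered libraries had a mean correlation of -0.00866 (15 pairs, -0.199 to 0.231), beside 0.0045 for 30 pairs of other numbers. Deviations sum to 0 within a group, so the second mean largely follows from the first and is no separate check. With the replicate block the genotype effect of Hspa1b on the HFS diet was 0.034, and the diet effects in Xbp1 LKO were -0.10 for Hspa1b, -0.13 for Hsp90aa1 and -0.10 for Dnajb1. The block called 455 genes on chow, 412 on the HFS diet and 38 and 19 for the diet effects in Xbp1 fl/fl and Xbp1 LKO.

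Counts over all genes moved more. The TMM fit called 632, 543, 57, 8 and 0 genes (genotype on chow, genotype on HFS, diet in Xbp1 fl/fl, diet in Xbp1 LKO, interaction), DESeq2 1115, 981, 175, 208 and 31, and edgeR without a filter 1507, 1438, 499, 722 and 269. Library totals gave 3000 and 1483 in the genotype comparisons, of which 89.5% and 86.9% were higher in Xbp1 LKO, against 36.4% and 47.1% with TMM, and 60.0% against 75.0% of the 10 and 8 genes called for the diet effect in Xbp1 LKO. Only the groups compared gave 233 on chow and 0 for the diet in Xbp1 LKO. Leaving out 1 library gave 69 to 762, 184 to 662, 6 to 59, 0 to 36 and 0, with the lowest on chow without replicate 2 of the chow-fed Xbp1 LKO group.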
